A study of Mus musculus with 6 samples.

Results

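Imprinted genes outside the insulin-like growth factor axis were followed in medullary thymic epithelial cells with and without Aire. The 10 genes considered were H19, Dlk1, Peg3, Plagl1, Cdkn1c, Grb10, Mest, Snrpn, Ndn and Impact. The genes were chosen with earlier results of these data known, and all their probe sets were then taken by annotation. The platform annotation listed 15 probe sets, of 12422 on the array, that named exactly 1 of these genes. They stood for 9 of the 10 genes, since no probe set was annotated to Snrpn. The probe set for H19 also named Mir675, a microRNA gene that lies inside H19. By annotation its signal could not be assigned to either gene alone, and it is called H19/Mir675 here. Peg3 and Grb10 each had 3 probe sets, Plagl1 and Ndn each had 2, and the other 5 genes had 1.

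An imprinted gene is transcribed mainly from the copy inherited from a single parent, because germ cells mark the copies differently by DNA methylation. Several of these genes are known as regulators of fetal growth and are usually abundant in the fetus and placenta and lower in adult tissues. In the adult thymus, medullary epithelial cells are known to transcribe many genes of other tissues and stages, and Aire promotes part of that transcription. H19 and Igf2 lie next to each other and share enhancers and an imprinting control region, and Cdkn1c lies in a neighbouring imprinted domain with Kcnq1 and Phlda2. H19, Cdkn1c and, in most tissues, Grb10 are expressed from the maternal copy, and Dlk1, Peg3, Plagl1, Mest, Ndn and Impact from the paternal copy. Which parental copy gave a signal could not be read from these arrays.

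The wild-type group was B6/129 F2 mice, and the Aire-deficient group was B6/129 F2 mice in which both copies of Aire were disrupted. Both groups were 3 to 5 weeks old. Each group had 3 arrays, and every array was made from thymi of 5 mice, males and females mixed, so that differences between animals were averaged within a pool. The cells were sorted as CD45-, G8.8+, CDR1 intermediate and B7.1 high, and T7 polymerase was used to amplify the total RNA in 2 successive rounds. Signals below are normalized intensities in arbitrary units. They were not compared between genes, but the brightest probe set of a list gene was picked by signal. Sums over marker lists add signals of different probe sets and so weigh bright ones most. Differences are Aire-deficient minus wild-type on the log2 scale.

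The arrays differed in some respects that the genotype labels do not cover. The single Aire probe set gave 59.9, 96.4 and 138 in wild type, where Aire is intact, and 202, 297 and 211 in Aire-deficient cells. The disrupted part of Aire is not named in the labels, so this probe set is no check of the genotypes. The beta-actin ratio of 3' over 5' signal, a sign of RNA quality or amplification, was 95.8 on wild-type array 2 and 4.38 to 13.8 on the other 5. The Gapdh ratio was 87.9 on that array and 5.94 to 26.3 on the other 5. Among the genes below, wild-type array 2 gave the highest value for H19/Mir675, Cdkn1c, Igf2, Osbpl5 and Dppa3, but not for Ndn or Gatm. Of 12 markers of medullary epithelium, 10 passed the filter on dim signals, while Krt5 and Krt14 lay under the dim limit of 5.53 on all 6 arrays. By limma 0 of the 10 were called, 7 differed upwards and 3 downwards, and the median difference was 0.30. Of the 3 with an unadjusted p under 0.05, Krt18 (1.04) and Ctss (0.76) were higher and Epcam (-1.14, without overlap) was lower. With the replicate number as a block Epcam, an epithelial adhesion molecule, was called lower (adjusted p = 0.0315). The block rests on a pairing taken from these same data, and that fit called 3.37% of all probe sets lower and 1.93% higher. The tested granulocyte markers were lower in Aire-deficient cells by geometric mean. Of 7 on the array 5 were tested and 4 were called lower, beside 1.38% of all probe sets tested. Among those called, Ly6g, Ltf and Ngp passed the filter through the wild-type arrays alone. Elane and Prtn3 were too dim to be tested. Elane overlapped, and Prtn3 was higher without overlap (4.15, 3.78 and 2.27 against 7.62, 5.53 and 4.73). The summed signal of the 7 was 180 to 253 on the wild-type and 31.0 to 48.3 on the Aire-deficient arrays. Each Aire-deficient array had Ly6g under the floor of 1.8. Of 9 fibroblast markers 8 were tested and limma called 0, with summed signals of 114 to 150 and 91.1 to 135. In this list 2 had an unadjusted p under 0.05, Col1a1 (-1.18) lower and Lum (0.96) higher, each without overlap. In the endothelial and T lineage lists, with 5 tested genes each, 0 were called and 0 had an unadjusted p under 0.05. The summed B lineage signal was 59.0 to 95.5 and 109 to 128, with 0 of 4 tested genes called without the block and 2 called higher with it. Ms4a1 ran the other way, by -0.59 on its brightest probe set, with overlap, and by -1.88 on another. The latter, outside the count, was lower with the block (adjusted p = 0.0339) and passed the filter through the wild-type arrays alone. The sum over 7 myeloid markers was 178 to 215 and 176 to 200. Of 5 tested, limma called 0 without the block, 2 had an unadjusted p under 0.05 (Csf1r lower, Cd68 higher), and Cd68 was called higher with the block (adjusted p = 0.0239).

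Because the H19 probe set carried the main result and its annotation names the microRNA within H19, the mature forms of that microRNA are shown, from RefSeq on GRCm38.p6. The hairpin lies at chr7:142577064-142577147 on the minus strand, and capitals mark the seed, bases 2 to 8 from the 5′ end.
mmu-miR-675-5p: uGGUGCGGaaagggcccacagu
mmu-miR-675-3p: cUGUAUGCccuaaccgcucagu
The seeds differ from each other, and 0 of the mature microRNAs of other genes in the RefSeq table of 1738 entries has either seed. The arrays do not separate the microRNA from its host transcript, and the signal is no measure of the mature forms.

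The comparison of genotypes asked which of these transcripts depended on Aire. The H19/Mir675 signal fell 8.77-fold in Aire-deficient cells, Cdkn1c and Ndn were lower on every Aire-deficient array than on any wild-type array without passing the threshold, and Peg3 and Dlk1 had overlapping groups. A probe set was tested if its signal exceeded the dim limit on at least 3 arrays. This held for 8 of the 15 probe sets, which covered H19/Mir675, Dlk1, Peg3, Plagl1, Cdkn1c and Ndn, whereas Grb10, Mest and Impact had none. By limma, at an adjusted p under 0.05, 1 of the 8 was lower and 0 were higher, and all 3 with an unadjusted p under 0.05 (H19/Mir675, Cdkn1c and Ndn) were lower. Over the whole array 1107 of 7768 tested probe sets had an unadjusted p under 0.05, 607 lower and 500 higher. Over all 7768 probe sets tested, 1.38% were called lower and 0.348% higher. In 3 of the 8 the groups did not overlap with the Aire-deficient arrays lower and in 1 with them higher, against 10.1% and 10.4% of all probe sets tested. Because the genes were chosen with earlier results of these data known, these shares are no test of them as a group. In bulk RNA, fewer cells of a type and less RNA per cell cannot be told apart.

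**Figure D1:**
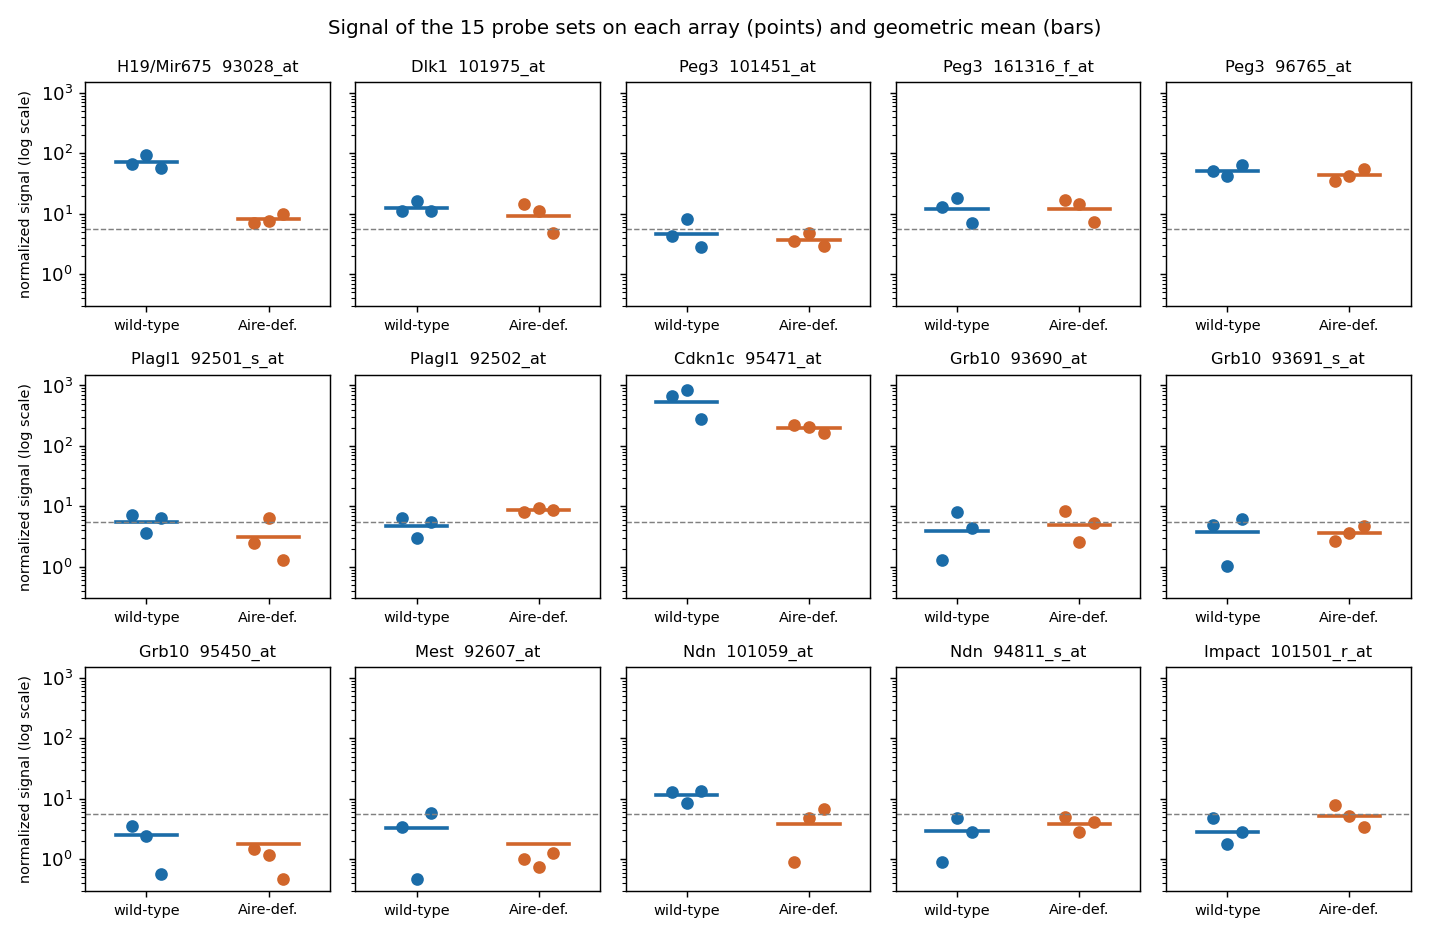
Normalized signal (log scale, arbitrary units) of the 15 probe sets on 3 wild-type and 3 Aire-deficient arrays, with points for arrays and bars for geometric means of values raised to the floor of 1.8. The dashed line is the dim limit of 5.53. H19/Mir675 lies at 57.8 to 93.8 in wild type and at 7.17 to 10.1 in Aire-deficient cells, while Grb10, Mest and Impact lie near or under the limit.

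H19 is a long non-coding RNA that is abundant in fetal tissues and is known to restrain growth. Its probe set gave 67.6, 93.8 and 57.8 in wild type and 7.17, 7.48 and 10.1 in Aire-deficient cells, in the order of the replicate numbers, as with all values below. All wild-type arrays were thus high and all Aire-deficient arrays low, with a wide gap between the groups, and the Aire-deficient signals still lay above the dim limit. The geometric mean fell from 71.5 (SD 0.36 on the log2 scale, n = 3) to 8.16 (SD 0.27, n = 3), or 8.77-fold. The log2 difference was -3.13 ± 0.33 (SE, 95% interval -3.86 to -2.41), and the limma adjusted p was 0.00188. By p-value the H19/Mir675 probe set was 6th, and by size of the fall 26th, of the 7768 tested. It passed in each of the 15 alternative fits that tested it, with adjusted p between 0.000364 and 0.0439. When wild-type array 3 was left out, 2 probe sets of the whole array were called lower, and H19/Mir675 was 1 of them. The granulocyte markers that were called ran the same way across the arrays, although the sort was for CD45- cells. The part of these markers in this result and in the lower values of Cdkn1c, Ndn and Gatm below was not tested.

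The genes on either side of H19 were examined next. Igf2, the fetal growth factor gene that shares the imprinting control region, gave 81.7, 275 and 116 in wild type and 3.15, 8.52 and 12.2 in Aire-deficient cells on 1 probe set. That is a difference of -4.32 ± 0.56 (SE, limma adjusted p = 0.00473), which missed the threshold without wild-type array 3 (adjusted p = 0.0553) and without a filter on dim signals (0.117). The other Igf2 probe set lay at 1.0 or below on all 6 arrays and was not tested. Ins2, an insulin gene beyond Igf2, had probe sets that disagreed. One, of a design that may bind family members, gave 14.7, 80.8 and 25.9 against 0.467, 1.87 and 1.88, at least 5.65-fold lower (limma adjusted p = 0.00691). It passed the filter through the wild-type arrays alone, all 3 Aire-deficient arrays being dim, and without that filter the adjusted p was 0.122. The other, designed under relaxed rules, gave 14.9, 6.38 and 13.5 against 18.5, 7.83 and 11.1, and its groups overlapped. On the far side of H19, Mrpl23, a gene for a mitochondrial ribosomal protein, differed by 0.05 (95% interval -0.65 to 0.75), and the muscle troponin gene Tnnt3 was too dim to be tested.

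Cdkn1c encodes p57, an inhibitor of cyclin-dependent kinases that holds back the cell cycle in differentiating cells. It gave 667, 840 and 283 in wild type and 219, 206 and 165 in Aire-deficient cells. The Aire-deficient arrays lay close together, the wild-type arrays were spread more widely, and wild-type array 3 was the nearest to the other group. Wild-type array 2, with the high 3' ratios, was the highest, and without it the log2 difference was -1.15 (limma adjusted p = 0.206). The geometric means were 541 (SD 0.83 on the log2 scale, n = 3) and 195 (SD 0.22, n = 3), a log2 difference of -1.47 ± 0.38 (SE, 95% interval -2.31 to -0.63). The limma adjusted p of 0.0891 was above 0.05. A fit with arrays paired by their number (the replicate block), a pairing taken from these same data, gave 0.00976 (SE 0.27). This was a fit that called 3.37% of all probe sets lower and 1.93% higher. Without the block, over the other 15 alternatives, the difference stayed below 0 and 0 passed.

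**Figure D2:**
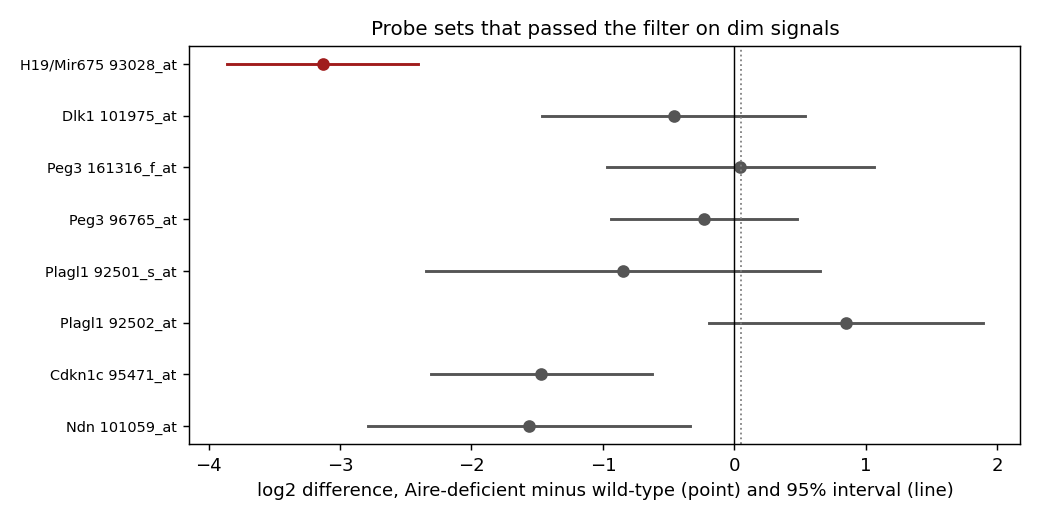
Log2 difference (Aire-deficient minus wild-type) of the 8 probe sets that passed the filter on dim signals, with 95% intervals from the limma fit. Red marks an adjusted p under 0.05, the solid line no difference, and the dotted line the median over all probe sets, 0.047. The interval of H19/Mir675 ends at -2.41, far from those of Dlk1 and Peg3, which span 0.

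The genes around Cdkn1c gave no calls. Kcnq1, a potassium channel gene, had 1 probe set at 10.6, 14.8 and 9.75 in wild type and 3.52, 4.25 and 5.33 in Aire-deficient cells. These groups did not overlap, and the signal was at least 2.09-fold lower (limma adjusted p = 0.145, or 0.0912 with the block). All 3 Aire-deficient arrays were dim, so this probe set passed the filter through the wild-type arrays alone. The other Kcnq1 probe set, designed under relaxed rules, gave 8.26, 10.8 and 10.1 against 14.8, 4.35 and 7.07, and its groups overlapped. Slc22a18, a gene for a membrane transporter, gave 18.1, 17.1 and 16.1 against 14.0, 8.17 and 11.9, without overlap (log2 difference -0.62 ± 0.34, SE, limma adjusted p = 0.448). Tssc4 and Phlda2, the latter a restrainer of placental growth, differed by -0.19 and -0.43, with overlapping groups.

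Ndn encodes necdin, a MAGE family protein of postmitotic neurons, and belongs to the imprinted region of Prader-Willi syndrome. Its better measured probe set gave 13.2, 8.4 and 13.5 in wild type and 0.917, 4.73 and 6.8 in Aire-deficient cells. The groups did not overlap, but 2 of the 3 Aire-deficient values lay under the dim limit and Aire-deficient array 1 was far below the others. The 3 wild-type arrays alone were enough for this probe set to pass the filter. The log2 difference was -1.56 ± 0.55 (SE, 95% interval -2.79 to -0.34), with a limma adjusted p of 0.225 (0.112 with the block, 0.431 without the filter). With a floor at the dim limit in place of the lower floor it was -0.95. The other Ndn probe set lay under the dim limit on all 6 arrays, at 0.917, 4.82 and 2.8 in wild type and 4.98, 2.78 and 4.15 in Aire-deficient cells.

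Magel2, another MAGE family gene beside Ndn, showed a like set of values near the dim limit. It gave 6.72, 6.82 and 7.62 in wild type and 3.25, 3.68 and 0.567 in Aire-deficient cells. The groups did not overlap, the signal was at least 1.27-fold lower, and the limma adjusted p was 0.314. Magel2 passed the filter through the wild-type arrays alone, all 3 Aire-deficient arrays being dim. Mkrn3, on the same side, was too dim to be tested. Ube3a, a ubiquitin ligase gene of this region, differed by 0.08 (95% interval -0.65 to 0.82).

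The zinc finger factors gave no calls. Plagl1, also known as Zac1, is a transcription factor that is known to act on other imprinted genes, H19 and Cdkn1c among them, and its probe sets ran in opposite directions. The first gave 6.52, 2.98 and 5.53 in wild type and 7.93, 9.25 and 8.6 in Aire-deficient cells, all near the dim limit, and was higher without overlap (log2 difference 0.85 ± 0.47, SE, limma adjusted p = 0.459). The 3 Aire-deficient arrays alone were enough for it to pass the filter. The second, of a design shared with similar transcripts, gave 7.27, 3.68 and 6.32 against 2.47, 6.53 and 1.27, with overlap (-0.85 ± 0.68, SE, adjusted p = 0.624). A direction for Plagl1 could therefore not be given.

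Peg3, a large zinc finger protein of brain and placenta, had the narrowest interval among the 4 probe sets of the 9 genes that were tested and whose groups overlapped. Its best measured probe set gave 50.4, 42.2 and 64.4 in wild type and 35.5, 42.7 and 56.2 in Aire-deficient cells. The groups overlapped, and the log2 difference was -0.23 ± 0.32 (SE, 95% interval -0.94 to 0.48, limma adjusted p = 0.804). On the values as deposited, where the median over all probe sets moved from 0.05 to 0.17, it was -0.003. A second probe set, of a family design, gave 12.8, 18.1 and 7.07 against 17.2, 14.3 and 7.32 (difference 0.04, 95% interval -0.97 to 1.06). The third lay at 2.8 to 8.3 and was not tested. Of the genes around Peg3, Usp29, Zfp444 and Zfp28 were too dim to be tested, and the zinc finger gene Zfp954 was higher without overlap (10.3, 15.6 and 14.5 against 16.4, 32.6 and 23.6, limma adjusted p = 0.339).

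Dlk1 is a membrane ligand related to the Notch ligands and a known brake on adipocyte formation. It gave 11.2, 16.6 and 11.1 in wild type and 14.7, 11.2 and 4.83 in Aire-deficient cells. Aire-deficient array 3 was low and the other 5 arrays lay together. The log2 difference was -0.46 ± 0.45 (SE, 95% interval -1.46 to 0.54, limma adjusted p = 0.705), and it was 0.01 without Aire-deficient array 3. The interval includes a fall as well as a rise. Meg3, the maternally expressed non-coding RNA beyond Dlk1, had 2 probe sets that did not exceed 4.15 on any array.

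Grb10, Mest and Impact were near background. Grb10, an adaptor that dampens insulin receptor signalling, exceeded the dim limit on 2, 1 and 0 arrays with its 3 probe sets, with a highest signal of 8.48. Mest, a hydrolase-like protein of fetal mesoderm, gave 3.43, 0.467 and 5.75 in wild type and 1.02, 0.733 and 1.27 in Aire-deficient cells. Impact, which eases the block of translation under amino acid shortage, gave 4.73, 1.8 and 2.8 against 7.83, 5.17 and 3.38, from a probe set designed under relaxed rules. In all 7 untested probe sets the groups overlapped. At these signals a difference was not detectable, which does not show that the transcripts were absent or equal.

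Further imprinted genes were taken from a textbook list, with earlier results of these data known. Of 60 genes, 32 had a probe set of their own and 22 were tested, each by its brightest probe set. By limma 1 fell and 0 rose, and 4 were lower and 1 higher without overlap. Over all probe sets tested, 1.38% were called lower and 0.348% higher, and 10.1% were lower and 10.4% higher without overlap. Magel2, among the 4, passed the filter through the wild-type arrays alone. The median difference was -0.05, beside 0.047 over all probe sets. The gene that fell was Gatm, an enzyme of creatine synthesis that is imprinted in placenta. It gave 27.7, 46.9 and 51.8 in wild type and 4.77, 7.15 and 16.7 in Aire-deficient cells, 4.91-fold lower (log2 difference -2.30 ± 0.47, SE, adjusted p = 0.0388). The call was lost without a variance trend (adjusted p = 0.0665), with a term for 3' bias (0.0787), without a filter on dim signals (0.232) and when any array other than Aire-deficient array 3 was left out (0.0704 to 0.16).

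**Figure D3:**
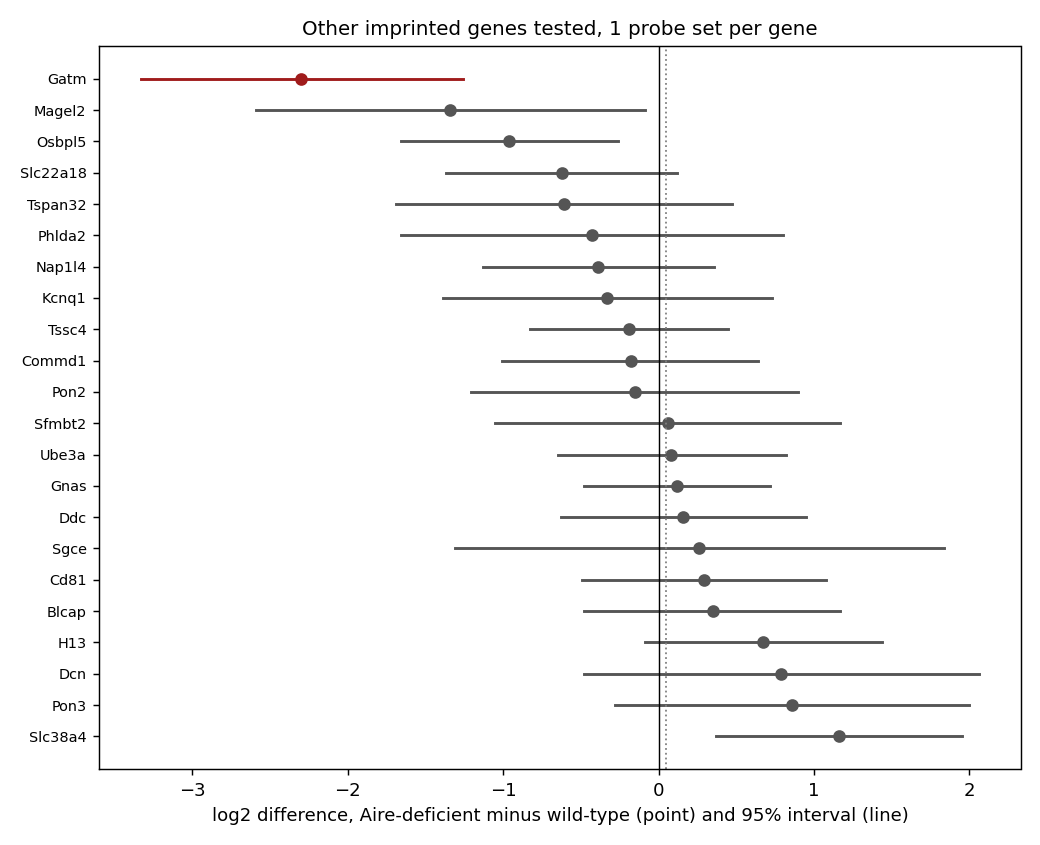
Log2 difference (Aire-deficient minus wild-type) with 95% interval for the 22 other imprinted genes tested, 1 probe set per gene, in order of the difference. Red marks an adjusted p under 0.05 in the limma fit, which 1 gene, Gatm at -2.30, reached; 11 genes lie below 0 and 11 above.

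Osbpl5, a lipid transfer protein gene in the Kcnq1 domain, gave 206, 270 and 130 in wild type and 99.7, 101 and 97.6 in Aire-deficient cells. These groups did not overlap, and the Aire-deficient arrays were nearly equal (log2 difference -0.96 ± 0.32, SE, limma adjusted p = 0.185, or 0.0604 with the block). Slc38a4, an amino acid transporter of placenta and liver, was the member of the list with the highest positive difference, at 9.75, 11.2 and 8.6 against 32.1, 20.7 and 15.8 (1.16 ± 0.36, SE, adjusted p = 0.159). The signal peptide peptidase gene H13 measured 11.7, 12.6 and 19.6 against 17.5, 24.9 and 26.9, with overlap. Dcn, a matrix proteoglycan of fibroblasts, gave 72.8, 231 and 38.2 against 102, 240 and 136, also with overlap. Gnas, which encodes a stimulatory G protein subunit, gave 369, 396 and 350 against 291, 493 and 461 (difference 0.12, 95% interval -0.48 to 0.72).

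The neighbouring genes were also counted as a list. The 2 nearest array genes on each side of the 9 imprinted genes came to 36 genes, of which 10 were also on the imprinted list. Of these 36, 25 were tested by their brightest probe set, 1 fell (Igf2), 0 rose, and 5 had an unadjusted p under 0.05. Over all probe sets tested, 1.38% were called lower and 0.348% higher, and 1107 of 7768 had an unadjusted p under 0.05. Without overlap 4 were lower and 1 higher, against 10.1% and 10.4% of all probe sets tested. The median difference was -0.15. The Ins2 probe set that fell was not the brightest of its gene and stands outside this count. With the block, Osbpl1a, an oxysterol binding protein relative next to Impact, was also called, as higher (27.6, 12.2 and 11.2 against 81.6, 145 and 14.7, adjusted p = 0.0452). Its groups overlapped, with Aire-deficient array 3 among the wild-type values, and its second probe set differed by -0.21.

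Genes that set or keep imprints were examined as a separate list. Of 15 on the array 13 were tested, and limma called 0, with 2 at an unadjusted p under 0.05 and a median difference of -0.17. Over all probe sets tested, 1107 of 7768 had an unadjusted p under 0.05. Dppa3, also known as Stella, a protein of germ cells that protects methylated copies in the early embryo, gave 33.6, 70.7 and 17.4 in wild type and 9.42, 11.4 and 8.23 in Aire-deficient cells. The groups did not overlap (log2 difference -1.85 ± 0.47, SE, adjusted p = 0.0838, or 0.0113 with the block). Ezh2, the methyltransferase of Polycomb complex 2, was higher without overlap, at 17.4, 26.6 and 35.8 against 42.3, 50.6 and 65.0 (1.02 ± 0.36, SE, adjusted p = 0.214). The maintenance methyltransferase gene Dnmt1 (difference 0.29), the insulator factor gene Ctcf (-0.18) and Trim28 (-0.17), the corepressor bound at imprinting control regions, had overlapping groups.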

How the data were processed

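The authors deposited 1 linear signal intensity per probe set and array, with software, background correction and scaling not given in the sources used here. The 66 control probe sets among 12488 were dropped. In the platform annotation 10833 of the rest named 1 gene, 396 several and 1193 none, and 10817 of the 10833 matched GRCm38.p6 by Entrez identifier. Arrays were quantile normalized, because their 2% trimmed means ranged from 19.6 to 26.9, more than 5% apart. Values were floored at 1.8, the 20th percentile over all arrays, and log2 transformed, which shortens folds of dim genes. Probe sets above the pooled 40th percentile (5.53, the dim limit) on at least 3 of 6 arrays were tested; 4654 were removed and 7768 kept. "At least" folds divide the brighter geometric mean by that limit.

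The genotypes were compared in R 4.3.3 by limma 3.58.1 (lmFit, eBayes with a variance trend, 2-sided, Benjamini-Hochberg over all probe sets tested, threshold 0.05). Figures used matplotlib 3.10.9. P-values measure the spread between pools, amplification and hybridisation included, and the number of arrays limits precision. For arrays sharing a replicate number, deviations from the group means had correlations of 0.37, 0.2 and 0.19, and for other pairs -0.25 to 0.068. Each same-number value lay above 0.1, so the numbers were taken as pairs and used as a block in an alternative fit. Deviations within a group of 3 sum to 0, so low values for the other pairs follow in part from the high ones. They are no separate check of the pairing. The pairing comes from these correlations in the same data, and the calls with the block rest on it.

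In simulated data for this comparison, with 200 of 12422 probe sets changed and 7702 tested, the fit recovered 8% of the 50 changed 2-fold, 58% of the 50 changed 4-fold, 92% of those changed 8-fold and 98% of those changed 16-fold. It made 7 false calls. Members and lists were chosen with earlier results of these data known. Named are all probe sets of the members, Aire, Igf2, and, from the imprinted, neighbour and machinery lists, the called genes and up to 6 more with the smallest p; markers are named as examples; other neighbours, further probe sets of named genes and Dcn, Gnas, Dnmt1, Ctcf and Trim28 were added after their values were seen.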

Additional observations from a re-analysis of the deposited data

How the results depend on the processing

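Over 16 alternatives, 117 of 122 refits of the tested probe sets of the members kept their direction and side of the threshold. Cdkn1c passed with the replicate block (-1.47, adjusted p = 0.00976). The family-design Peg3 probe set turned from 0.04 to between -0.33 and 0.41, and Dlk1 from -0.46 to between -0.79 and 0.01, when 1 array was left out. H19/Mir675 lay between -3.3 and -1.86 throughout, the latter with no floor and a pseudocount of 16. Because it names 2 genes it was not in the fit with 1 probe set per gene, where 0 members were called.

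Over all probe sets 107 were lower and 27 higher. The higher calls numbered 71 on the values as deposited, 55 after median scaling and 57 with the pseudocount. The lower share of the calls was then 59%, 63.8% and 73.2%, against 79.9%. Lower and higher calls were 10 and 6 without a filter on dim signals, 166 and 72 with array weights and 262 and 150 with the replicate block. With 1 array left out there were 2 to 76 lower and 0 to 9 higher calls, the fewest without wild-type array 3. With the block 2 member probe sets were lower, 1 neighbour gene was higher and 1 machinery gene was lower. The 1 call among other imprinted genes became 0 without the filter, without a variance trend and with the 3' term. Leaving out 1 array gave 0 to 1 such calls, 0 to 1 lower neighbours (0 without wild-type array 3) and 0 to 1 higher neighbours (1, Osbpl1a, without Aire-deficient array 3). Lower neighbours numbered 0 without the filter and 2 with the 3' term, where Aqp4 (-2.52, adjusted p = 0.0474) joined Igf2. The causes were not tested. Signals near the dim limit leave Grb10, Mest, Impact, Plagl1, Magel2 and the second Ndn probe set unresolved.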
